A study of Homo sapiens with 5 samples.

Results

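The CAY10603 library was compared with the vehicle library in TOV21G, an established line from a human ovarian clear cell carcinoma. Its members are the genes with at least 5 CPM (a count scaled to library size with TMM factors) in at least 1 of the 2 libraries. They number 10811 of the 28442 gene rows in the deposited table, and the comparison uses 2 of the 5 libraries of the series. The series profiled RNA after interference with HDAC6, and its title names ovarian cancers that carry ARID1A mutations. Each treatment had 1 library: the small molecules CAY10603 and ACY1215, the drug vehicle (headed DMSO in the table), a control hairpin (shControl) and a hairpin against HDAC6 (shHDAC6). The labels place vehicle and shControl in the control experiment and the other 3 libraries under repressed HDAC6. Per the labels' protocols, cells infected with virus were selected with puromycin. The protocols name 2 hairpins against HDAC6 and do not say which of them the library had, and they state neither drug doses nor exposure times.

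HDAC6 is a mainly cytoplasmic deacetylase that acts on alpha-tubulin, cortactin and the chaperone HSP90, and it carries ubiquitinated protein to the aggresome through a zinc-finger domain that binds ubiquitin. CAY10603 and ACY1215 are hydroxamates, compounds that bind the zinc ion of the deacetylase active site, and both are used as inhibitors with a preference for HDAC6. Inhibition acts on the protein, so the HDAC6 transcript does not report whether the drug reached its target. Inhibitors of the nuclear class I deacetylases alter transcription widely, and genes such as CDKN1A and H1F0 are commonly raised by them.

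With 1 library a side there was no spread between replicates and no test could be made. Every interval given for a ratio is an exact 95% binomial interval of the counts, which leaves out any variation between cultures. Total counts ran from 43498805 in vehicle to 57442767 in shControl, with 48776359 in CAY10603. Of 11 genes of clear cell and epithelial identity, the summed level was 672 CPM in vehicle and 710 CPM in CAY10603. PAX8, EPCAM, KRT8 and KRT18 were each above 20 CPM in both libraries, whereas NAPSA, KRT7 and CDH1 were each under 1 CPM. The 8 leukocyte markers summed to 2.49 CPM in vehicle and 2.63 CPM in CAY10603, and CD3D was at 0 in all 5 libraries. The 5 endothelial markers summed to 0.617 and 0.576 CPM and the 6 fibroblast markers to 4.56 and 3.89 CPM.

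The CAY10603 transcriptome lay close to that of vehicle. The median log2 ratio of CAY10603 over vehicle was 0.02, with quartiles of -0.08 and 0.12, and 88.1% of genes were within 1.2-fold of vehicle. Only 31 genes (0.287% of 10811) were at least 2-fold apart, 3 higher (0.0277%) and 28 lower (0.259%). At least 1.5-fold apart were 127 genes (1.17%), of which 39 were higher (0.361%) and 88 lower (0.814%). The counting interval lay wholly past 1.5-fold for 11 of the 39 higher and 52 of the 88 lower genes. Of the higher genes 15 had less than 5 CPM in vehicle, and of the lower genes 25 had less than 5 CPM in CAY10603. Such genes were admitted by the library in which they were high, so they had to differ, and no share over them is read as support. The genes nearest to the 1.5-fold boundary were HHAT (log2 ratio 0.59) on the higher side, and VILL (-0.60) and ENTPD1 (-0.58) on the lower. At the 2-fold boundary CDKN2A (1.03) was just inside and TERC (0.88) outside, and on the lower side TBC1D8B (-1.08) was inside and MIPOL1 (-0.997) outside. With scaling by library totals alone every log2 ratio shifted by -0.07, which made the 1.5-fold split 26 higher and 123 lower and turned the sign of 15 of 37 list medians, all of them within 0.06 of 0. With shControl in place of vehicle as the control, 153 genes were at least 2-fold apart, 112 higher and 41 lower. Set against the same vehicle library, 15.3% of genes were at least 1.5-fold apart in ACY1215 and 7.76% in shControl.

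**Figure D1:**
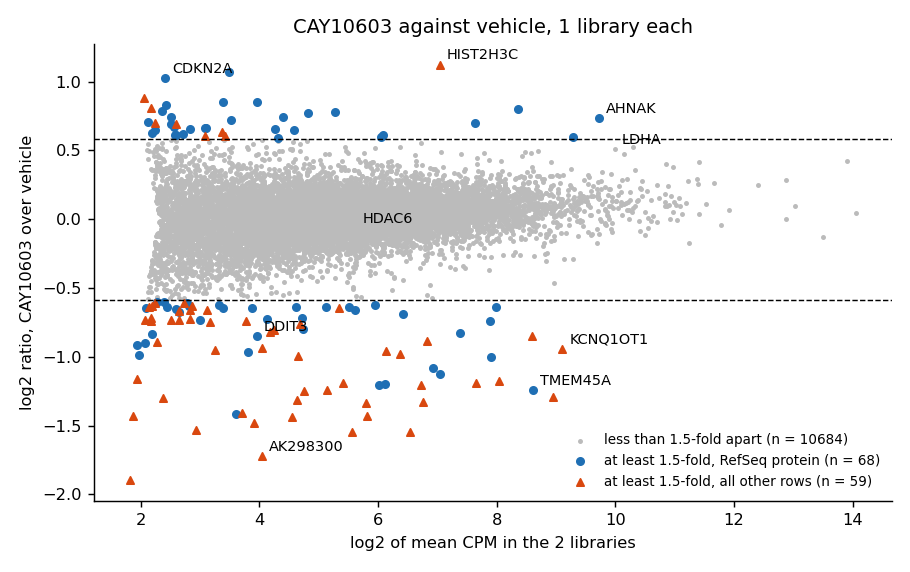
Each point is 1 of 10811 genes, with the log2 of its mean CPM in the 2 libraries on the x axis and the log2 ratio of CAY10603 over vehicle on the y axis; dashed lines mark 1.5-fold. Most points lie between the lines, 39 lie on or above them and 88 on or below, and the lower ones include many rows without a RefSeq protein (triangles).

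HDAC6 itself was read at 50.1 CPM in vehicle, 47.9 in CAY10603, 32.9 in ACY1215, 49.0 in shControl and 29.3 in shHDAC6. The CAY10603 level stood beside the 2 controls, and the levels in ACY1215 and shHDAC6 were lower. Its log2 ratio over vehicle was -0.06, with a counting interval from -0.15 to 0.02. Of 15 histone deacetylase genes measured, 7 were higher and 8 lower than in vehicle, with a median log2 ratio of -0.01 and 0 past 1.5-fold. HDAC5, a class IIa deacetylase that shuttles between nucleus and cytoplasm, departed most, at 29.3 CPM in vehicle, 20.3 in CAY10603, 31.4 in ACY1215, 20.3 in shControl and 24.8 in shHDAC6. The CAY10603 value (log2 ratio -0.53, interval -0.65 to -0.41) lay beside that of shControl, below vehicle and ACY1215. SIRT2, the other deacetylase of tubulin, had 20.3 CPM in vehicle and 15.9 in CAY10603 (log2 ratio -0.35, interval -0.49 to -0.21). The class II genes HDAC4, HDAC7 and HDAC9 had log2 ratios of 0.01, -0.01 and 0.02. HDAC10 and the tubulin acetyltransferase ATAT1 were under the level needed to be measured. ARID1A, a subunit of the SWI/SNF remodelling complex, had 9.27 CPM in vehicle and 10.4 CPM in CAY10603, and its interval for the log2 ratio ran from -0.03 to 0.35.

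Genes of the proteins that HDAC6 acts on or binds were all within 1.5-fold of vehicle, with 14 of 22 higher and a median of 0.06. Across all measured genes 55.6% were higher and 44.4% lower. TUBA1A, an alpha-tubulin, was the highest of them by ratio, with 298 CPM in vehicle, 418 in CAY10603, 500 in ACY1215, 587 in shControl and 721 in shHDAC6. Vehicle was the lowest of the 5 libraries and CAY10603 the next (log2 ratio 0.49, interval 0.46 to 0.52). TUBA1A was picked for its large ratio over vehicle, which favours a low vehicle rank. TUBA1B, another alpha-tubulin, had 811 CPM in vehicle and 753 in CAY10603 (log2 ratio -0.11). Over 27 tubulins and tubulin modifiers the median was -0.01, with 12 higher, 15 lower and 0 past 1.5-fold. DYNC1H1, the heavy chain of the dynein motor that carries aggresome cargo, had 338 CPM in vehicle and 438 in CAY10603 (log2 ratio 0.38). Microtubule-associated proteins and motors were higher in 24 of 28 with a median of 0.09, and cytosolic heat shock genes in 24 of 28 with a median of 0.06. The chaperones HSP90AA1 and HSP90AB1 had log2 ratios of 0.29 and 0.25. In autophagy and lysosome genes 17 of 31 were higher (median 0.04) and in proteasome genes 23 of 31 (median 0.05), again with 0 past 1.5-fold in both lists.

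Genes commonly raised by broad deacetylase inhibitors were only slightly above vehicle. Of 16 measured members 13 were higher and 3 lower, where 55.6% of all measured genes were higher. Of the members 0 were past 1.5-fold, and their median log2 ratio was 0.14. STC1, a secreted glycoprotein hormone, led them with 244 CPM in vehicle, 295 in CAY10603, 431 in ACY1215, 313 in shControl and 284 in shHDAC6. KLF6, a zinc-finger transcription factor, TXNIP, the inhibitor of thioredoxin, and MT2A, a metallothionein, had log2 ratios of 0.26, 0.25 and 0.24. The CDK inhibitor CDKN1A was at 151 CPM in vehicle and 154 in CAY10603, beside 204 in ACY1215, 337 in shControl and 327 in shHDAC6. Its interval, -0.02 to 0.07, included 0. The median of the list against vehicle was 0.44 in ACY1215 and 0.29 in shControl, and with shControl as the control the CAY10603 median turned to -0.09.

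The cell cycle programme was close to vehicle. Of 34 genes of the G2 and M phases 12 were higher and 22 lower, with a median of -0.04, a range from -0.31 to 0.15 and 0 past 1.5-fold. Against the same vehicle library the list had a median of -1.30 in ACY1215, -0.48 in shControl and -0.06 in shHDAC6. AURKB, the kinase of the chromosomal passenger complex, was the farthest below, at 36.6 CPM in vehicle, 29.6 in CAY10603, 12.3 in ACY1215, 19.5 in shControl and 31.6 in shHDAC6. CCNB1, the mitotic cyclin B1, had 321 CPM in vehicle, 333 in CAY10603, 160 in ACY1215, 283 in shControl and 341 in shHDAC6. For both genes the vehicle and CAY10603 levels lay near each other and the ACY1215 level was the lowest of the 5. Of 35 DNA replication genes 18 were higher and 17 lower (median 0.00, 0 past 1.5-fold). Because doses and times of the drugs are not known, these values are set side by side and the compounds are not compared. Among BCL2 family and caspase genes 17 of 25 were higher and 8 lower (median 0.03, 0 past 1.5-fold), where 55.6% of all measured genes were higher.

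CDKN2A, which encodes the CDK4 and CDK6 inhibitor p16 and the MDM2 inhibitor p14ARF, had 3.50 CPM in vehicle, 7.18 in CAY10603, 10.5 in ACY1215, 7.55 in shControl and 4.15 in shHDAC6. Vehicle was the lowest of the 5 and CAY10603 stood between the 2 hairpin libraries. CDKN2A was picked for its ratio and, of the pair, passed the floor of 5 CPM through CAY10603 alone. That choice favours a low vehicle level, so nothing is read from its rank. The log2 ratio was 1.03 with an interval from 0.76 to 1.31, and the neighbouring CDK inhibitor CDKN2B, under the floor of 5 CPM, had -0.03. CDKN2A was the only member past 1.5-fold among 19 CDK inhibitors and G1 cyclins, of which 13 were higher, where 55.6% of all measured genes were higher. CCND2, cyclin D2, with 176 CPM in vehicle and 232 in CAY10603, and CDK6, with 236 and 295.5 CPM, had log2 ratios of 0.40 and 0.32.

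AHNAK and AHNAK2 were among the abundant genes past 1.5-fold. AHNAK, a giant scaffold protein beneath the plasma membrane, had 633 CPM in vehicle, 1054 in CAY10603, 1275 in ACY1215, 1527 in shControl and 1163 in shHDAC6. Its relative AHNAK2 had 151 CPM in vehicle, 246 in CAY10603, 369 in ACY1215, 366 in shControl and 277 in shHDAC6. In both genes vehicle was the lowest library by a wide margin and CAY10603 was the next. The log2 ratios were 0.74 (interval 0.71 to 0.76) and 0.70 (0.66 to 0.74). Both genes were picked for a large ratio over vehicle or after their values were seen, which favours a low vehicle rank. Collagen and matrix genes as a list were higher in 20 of 27, where 55.6% of all measured genes were higher. The median of the list was 0.18 (-0.15 with shControl as the control), with 1 member past 1.5-fold. COL1A2, a chain of type I collagen, was highest in CAY10603 (33.5 CPM, with 22.6 in vehicle and 31.5 in ACY1215, log2 ratio 0.57). COL7A1, the anchoring fibril collagen, went the other way, from 11.8 CPM in vehicle to 7.90 in CAY10603 (log2 ratio -0.58, interval -0.78 to -0.39).

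Other genes higher than in vehicle belonged to no single list. PCSK1N, an inhibitor of prohormone convertase 1, had 11.1 CPM in vehicle, 20.1 in CAY10603, 39.5 in ACY1215, 17.9 in shControl and 12.2 in shHDAC6. NRCAM, a neuronal adhesion molecule, had 5.18, 7.98, 17.0, 7.57 and 5.91 CPM in the same order, and GCNT1, an enzyme of O-glycan branching, 4.71, 7.22, 15.8, 7.43 and 5.93 CPM. In these 3 genes the ACY1215 library was the highest and vehicle the lowest. SDF2L1, a protein of the endoplasmic reticulum chaperone complex, had 7.42 CPM in vehicle and 13.4 to 19.2 CPM in the other 4 libraries, and its log2 ratio was 0.85 (interval 0.67 to 1.05). MYD88, the adaptor of Toll-like and interleukin-1 receptors, had 3.74 CPM in vehicle, 6.48 in CAY10603, 4.42 in ACY1215, 8.16 in shControl and 4.44 in shHDAC6. IFI6, an interferon-induced protein, was the only one of 31 interferon response and class I presentation genes past 1.5-fold (8.72 CPM in vehicle and 14.4 in CAY10603, log2 ratio 0.72), and that list was otherwise split, with 14 higher and 17 lower. TERC, the RNA template of telomerase, had 2.91 CPM in vehicle and 5.07 to 6.42 CPM in the other 4 libraries. All genes named in this paragraph had been picked for a large ratio over vehicle or after their values were seen, which favours a low vehicle rank. Of the pair, only CAY10603 carried GCNT1, MYD88 and TERC past the floor of 5 CPM.

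Histone transcripts were lower as a group while 1 row was the highest of all ratios. HIST2H3C, a histone H3 gene, had 82.7 CPM in vehicle, 180.2 in CAY10603, 57.1 in ACY1215, 107 in shControl and 168 in shHDAC6. CAY10603 was the highest library, with shHDAC6 next (log2 ratio 1.12, interval 1.07 to 1.18). HIST2H3D, a near-identical copy, had 36.5 CPM in vehicle and 31.9 in CAY10603 (log2 ratio -0.20), so the split of reads between these copies makes the value of HIST2H3C uncertain. Of 38 replication-dependent histone genes measured 31 were lower and 7 higher, where 44.4% of all measured genes were lower. The median of the list was -0.19, with HIST1H4J (-0.80) as the only member past 1.5-fold below. HIST1H2BD, an H2B gene, had 580.1 CPM in vehicle, 420.5 in CAY10603, 201 in ACY1215, 388 in shControl and 437 in shHDAC6. Vehicle was the highest and ACY1215 the lowest of the 5. HIST1H2BD was picked for its large ratio below vehicle, which favours a high vehicle rank. The histone median against vehicle was -1.31 in ACY1215, -0.66 in shControl and 0.20 in shHDAC6, so that with shControl as the control the CAY10603 median turned to 0.39. H2AFX, the replacement histone that is phosphorylated at DNA breaks, had 15.8 CPM in vehicle, 26.6 in CAY10603, 12.9 in ACY1215, 22.5 in shControl and 27.7 in shHDAC6. Its log2 ratio of CAY10603 over vehicle was 0.75, and it was 0.24 with shControl as the control.

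Genes of the ATF4 pathway gave the most one-sided list on the lower side. ATF4 is the transcription factor through which amino acid shortage and stress of the endoplasmic reticulum raise genes for amino acid uptake and synthesis. It binds elements that join a C/EBP half-site to an ATF half-site, with the core letters TGATGNAA (N is any base). These letters were searched on both strands of the 250 bases before the transcription start in RefSeq promoters of GRCh38.p14, a motif chosen after the values were seen. They were present in 4 of 25 ATF4-list promoters (16%) and in 1.19% of 8715 promoters of measured genes. The 4 are printed 5′ to 3′ on the strand of the gene, ending at the base before the start, with the match in capitals, to show where these letters sit. A match is a description of letters and not of binding. Among genes at least 1.5-fold lower in CAY10603 the letters were present in 1 of 40 promoters (2.5%). DDIT3 and SLC7A11, named below, were not among the 4. The list was made of ATF4 targets and amino acid genes, so its share is no result of these data.
ASNS, chr7:97872409-97872658, minus strand: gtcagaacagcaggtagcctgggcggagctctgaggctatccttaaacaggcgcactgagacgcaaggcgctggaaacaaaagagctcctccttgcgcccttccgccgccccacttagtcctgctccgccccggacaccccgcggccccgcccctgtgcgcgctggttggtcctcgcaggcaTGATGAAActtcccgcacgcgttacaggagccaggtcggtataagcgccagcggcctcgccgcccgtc
CHAC1, chr15:40953221-40953470, plus strand: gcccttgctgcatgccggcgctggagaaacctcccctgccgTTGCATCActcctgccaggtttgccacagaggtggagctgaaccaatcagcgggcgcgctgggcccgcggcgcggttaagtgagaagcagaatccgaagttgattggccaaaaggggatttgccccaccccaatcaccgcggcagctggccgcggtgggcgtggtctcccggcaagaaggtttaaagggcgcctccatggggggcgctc
ATF3, chr1:212565157-212565406, plus strand: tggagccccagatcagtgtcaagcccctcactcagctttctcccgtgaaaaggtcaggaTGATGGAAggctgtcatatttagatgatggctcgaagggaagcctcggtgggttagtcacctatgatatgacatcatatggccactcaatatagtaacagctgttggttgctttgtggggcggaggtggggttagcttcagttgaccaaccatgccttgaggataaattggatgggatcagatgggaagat
AARS, chr16:70289507-70289756, minus strand: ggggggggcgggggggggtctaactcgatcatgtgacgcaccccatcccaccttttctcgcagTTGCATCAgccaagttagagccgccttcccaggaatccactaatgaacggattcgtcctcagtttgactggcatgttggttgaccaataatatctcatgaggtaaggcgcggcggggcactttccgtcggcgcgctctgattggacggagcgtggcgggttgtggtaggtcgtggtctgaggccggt

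The match began 68 bases before the start in ASNS, 209 in CHAC1, 191 in ATF3 and 187 in AARS, and in CHAC1 and AARS it was on the opposite strand. Of 30 measured members of the list 27 were lower in CAY10603 than in vehicle and 3 higher, where 44.4% of all genes were lower. The median log2 ratio was -0.33, against 0.02 for all genes, and 3 members were past 1.5-fold below. DDIT3, the stress transcription factor CHOP, had 20.02 CPM in vehicle, 11.1 in CAY10603, 7.54 in ACY1215, 9.02 in shControl and 9.72 in shHDAC6. SLC7A11, the cystine transporter that feeds glutathione synthesis, had 33.8 CPM in vehicle, 19.4 in CAY10603, 18.9 in ACY1215, 11.4 in shControl and 11.4 in shHDAC6. CHAC1, which degrades glutathione, had 8.35 CPM in vehicle, 5.45 in CAY10603, 3.92 in ACY1215, 2.52 in shControl and 3.87 in shHDAC6. In all 3 the vehicle library was the highest and CAY10603 the second. The log2 ratios were -0.85 (interval -1.01 to -0.70), -0.80 (-0.92 to -0.68) and -0.61 (-0.85 to -0.38). These 3 genes, and PHGDH below, were picked for large ratios over vehicle. That choice favours a high vehicle rank, so nothing is read from the ranks of these genes. ASNS, asparagine synthetase, had 55.9 CPM in vehicle, 39.7 in CAY10603, 43.4 in ACY1215, 28.9 in shControl and 27.1 in shHDAC6 (log2 ratio -0.50). PHGDH, the first enzyme of serine synthesis, had 58.8 CPM in vehicle and 29.3 to 39.9 CPM in the other 4 libraries (log2 ratio -0.56). CBS, which directs homocysteine to cystathionine, was instead lowest in CAY10603, with 56.0 CPM in vehicle, 39.4 in CAY10603, 40.7 in ACY1215, 58.3 in shControl and 51.2 in shHDAC6. The ATF4 transcript itself was at 501 CPM in vehicle and 424 in CAY10603 (log2 ratio -0.24), although ATF4 is controlled largely at translation. Over the list, vehicle held the highest level of the 5 libraries for 15 of 30 members (12.5% of all measured genes) and CAY10603 for 0 (12.6% of all). The medians of the list against vehicle were -0.31 in ACY1215, -0.35 in shControl and -0.21 in shHDAC6, so the control hairpin library lay about as far below vehicle as the drug library. With shControl as the control the CAY10603 median was 0.04.

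**Figure D2:**
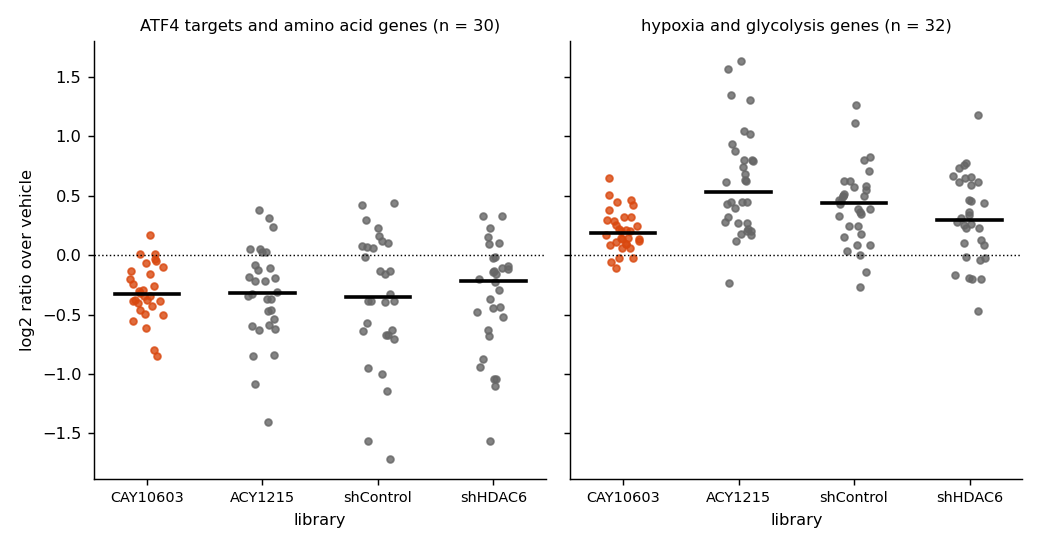
Points are the log2 ratios over vehicle of the 30 ATF4 and amino acid genes (left) and the 32 hypoxia and glycolysis genes (right) in each of the other 4 libraries, and black lines are medians. In both panels shControl lies on the same side of vehicle as CAY10603, with medians of -0.35 beside -0.33 on the left and 0.44 beside 0.18 on the right.

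Hypoxia and glycolysis genes had the highest median of the lists of protein-coding genes with at least 5 measured members. Of 32 measured members 28 were higher than in vehicle and 4 lower, with a median of 0.18 and 1 past 1.5-fold, where 55.6% of all genes were higher. Many of them carry hypoxia response elements with the core ACGTG. Searched on both strands as above, this core was present in 13 of 28 promoters of the list (46.4%) and in 24.2% of promoters of measured genes. The related letters GCGTG went the other way, with 10 of 28 promoters of the list (35.7%) and 47.1% of promoters of measured genes. Among genes at least 1.5-fold higher in CAY10603, ACGTG was present in 5 of 28 promoters (17.9%). The window of LDHA is shown because it held 5 matches, counting both strands, of which 4 lie in 2 palindromic CACGTG sites.
LDHA, chr11:18394313-18394562, plus strand: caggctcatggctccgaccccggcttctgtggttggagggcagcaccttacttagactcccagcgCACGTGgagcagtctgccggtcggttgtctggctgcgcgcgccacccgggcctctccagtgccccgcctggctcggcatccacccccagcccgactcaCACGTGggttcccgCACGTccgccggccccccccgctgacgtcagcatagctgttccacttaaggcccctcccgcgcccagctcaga

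LDHA, the lactate dehydrogenase that regenerates NAD for glycolysis, had 838 CPM in vehicle, 1192 in CAY10603, 1725 in ACY1215, 1368 in shControl and 1264 in shHDAC6. PFKFB3, which makes the activator of phosphofructokinase, had 82.5 CPM in vehicle, 114 in CAY10603, 205 in ACY1215, 144 in shControl and 131 in shHDAC6. ANGPTL4, an inhibitor of lipoprotein lipase and the only member past 1.5-fold, had 3.70 CPM in vehicle, 5.82 in CAY10603, 11.6 in ACY1215, 8.05 in shControl and 6.31 in shHDAC6. For these 3 genes vehicle was the lowest library and CAY10603 the next lowest. The log2 ratios were 0.51 (interval 0.49 to 0.53), 0.46 (0.40 to 0.52) and 0.65 (0.37 to 0.94). They were picked for large ratios over vehicle, and of the pair ANGPTL4 passed the floor of 5 CPM through CAY10603 alone. SLC2A3, a glucose transporter, HK2, a hexokinase, and PGK1, phosphoglycerate kinase, had log2 ratios of 0.42, 0.38 and 0.32. Not every gene of the response was higher: VEGFA, the endothelial growth factor, had 119 CPM in vehicle and 110.5 in CAY10603 (log2 ratio -0.11). Vehicle was the lowest of the 5 libraries for 23 of the 32 members (20.8% of all measured genes), and CAY10603 was the highest for 0 (12.6% of all). Medians against vehicle were 0.53 in ACY1215, 0.44 in shControl and 0.30 in shHDAC6, and with shControl as the control the CAY10603 median was -0.26.

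Cholesterol synthesis differed from those 2 lists in the medians of the other libraries. Of 28 genes of the sterol pathway and its regulators 23 were lower in CAY10603 than in vehicle, where 44.4% of all measured genes were lower. The median of the list was -0.10, whereas its medians against vehicle were 0.02 in ACY1215, -0.07 in shControl and 0.04 in shHDAC6. CAY10603 was the lowest of the 5 libraries for 8 members (13.7% of all measured genes) and vehicle the highest for 8 (12.5% of all). Past 1.5-fold was 1 member. EBP, a sterol isomerase, had 33.2 CPM in vehicle, 24.97 in CAY10603, 19.2 in ACY1215, 27.6 in shControl and 33.2 in shHDAC6. INSIG1, which retains the SREBP complex in the endoplasmic reticulum, had 30.3, 23.3, 20.5, 17.9 and 25.4 CPM in the same order. In both genes ACY1215 lay below CAY10603 and vehicle, unlike the ACY1215 median of the list. In ACY1215, 14 of the 28 members were lower than in vehicle. The differences of single members were small, and their order over the libraries was not shared.

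Cytosolic ribosomal protein genes were higher in 62 of 76, with a median of 0.11, where 55.6% of all measured genes were higher. RPS16 was the only one past 1.5-fold, at 28.4 CPM in vehicle, 48.8 in CAY10603, 58.6 in ACY1215, 43.8 in shControl and 29.9 in shHDAC6. Metallothionein and zinc transporter genes were higher in 12 of 13, by little (median 0.06, 0 past 1.5-fold). Respiratory chain subunits were split, with 19 higher and 23 lower of 42 (median -0.02). NRF2 targets were split too, with 12 of 24 on each side (median 0.03, against 0.40 in ACY1215). SWI/SNF subunits were higher in 14 of 22 (median 0.10) and Polycomb genes in 12 of 24 (median -0.00), all within 1.5-fold. Immediate early and MAPK feedback genes (14 of 25 higher, median 0.02) and genes of PI3K, AKT, SGK and mTOR signalling (19 of 29 higher, median 0.03) were also all within 1.5-fold. The same held for NF-kappaB and cytokine genes, with 11 of 24 higher and a median of -0.05. Cilium and hedgehog genes were higher in 12 of 29 (median -0.02) and Wnt genes in 14 of 21 (median 0.04), with 0 past 1.5-fold. Endoplasmic reticulum folding genes were higher in 16 of 26 (median 0.05), with SDF2L1 alone past 1.5-fold.

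**Figure D3:**
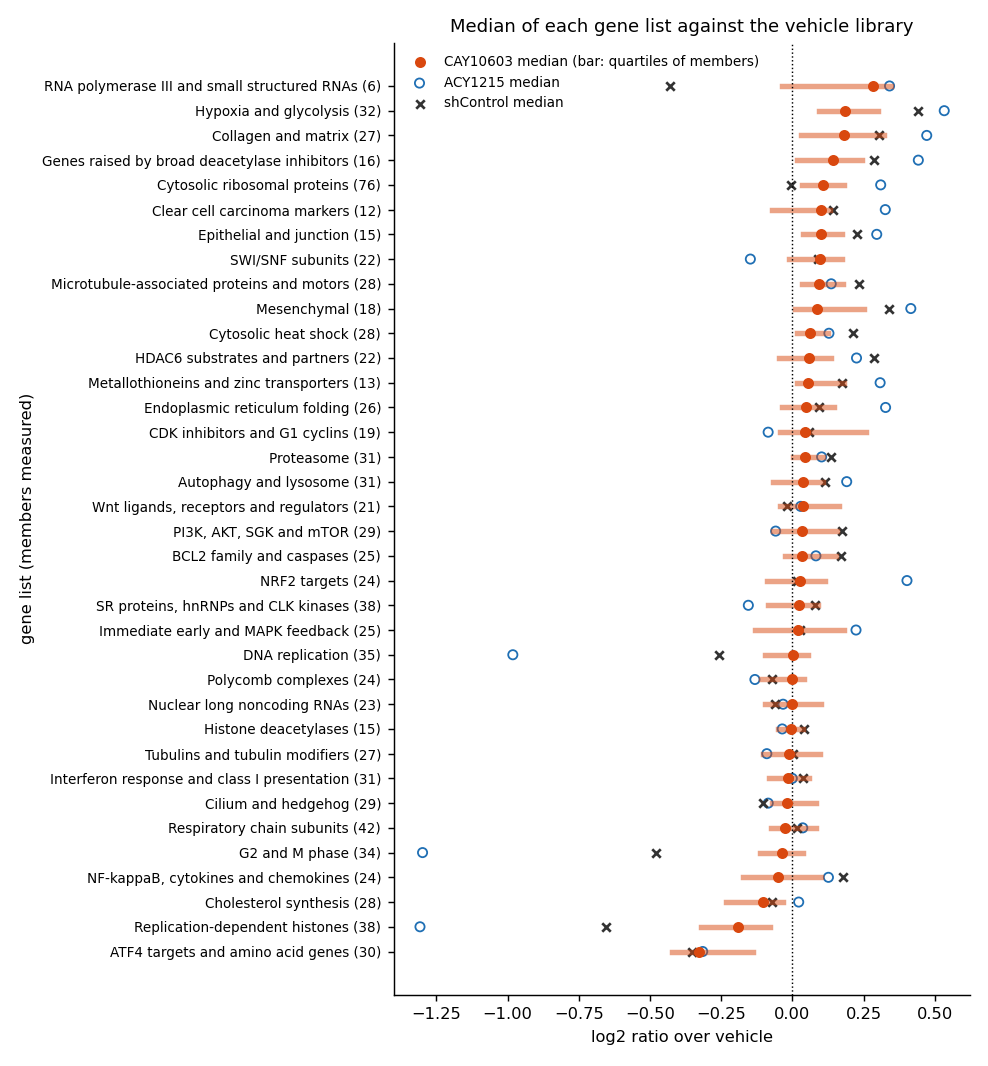
Medians of the log2 ratio over vehicle are plotted for gene lists with at least 5 measured members (number in brackets), with the quartiles of the members as bars for CAY10603. The CAY10603 medians run from -0.33 for ATF4 and amino acid genes to 0.28 for small structured RNAs, and the widest gaps to ACY1215 are in the G2 and M phase, DNA replication and histone lists.

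Of the 28 rows at least 2-fold lower only 6 were single genes with a RefSeq protein, and 12 were clone accessions, which are rows named for a cDNA and not for a gene. Past 1.5-fold below were 24 of 165 clone accessions (14.5%) and 37 of 10190 rows with a RefSeq protein (0.363%). TMEM45A, a transmembrane protein, had 551 CPM in vehicle, 233 in CAY10603, 179 in ACY1215, 39.5 in shControl and 41.0 in shHDAC6. UGT8, which makes the galactolipids of myelin, had 17.8 CPM in vehicle, 6.64 in CAY10603, 4.59 in ACY1215, 0.656 in shControl and 0.686 in shHDAC6. ABCC9, the sulfonylurea receptor SUR2 of potassium channels, had 214 CPM in vehicle, 120.5 in CAY10603, 75.9 in ACY1215, 11.0 in shControl and 13.01 in shHDAC6. Each had the same order of libraries, with vehicle first, then CAY10603, then ACY1215, and both hairpin libraries far below. The log2 ratios of CAY10603 over vehicle were -1.24 for TMEM45A (interval -1.27 to -1.21), -1.42 for UGT8 (-1.61 to -1.24) and -0.83 for ABCC9 (-0.88 to -0.78).

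Noncoding rows were also among those lower than in vehicle. KCNQ1OT1, the imprinted antisense RNA of the KCNQ1 locus, had 725 CPM in vehicle, 376 in CAY10603, 274 in ACY1215, 92.9 in shControl and 88.5 in shHDAC6. UGDH-AS1, the antisense RNA at UGDH, had 364 CPM in vehicle, 161 in CAY10603, 116 in ACY1215, 19.6 in shControl and 18.1 in shHDAC6, while UGDH itself had 86.2, 82.7, 80.2, 81.2 and 68.3 CPM. The antisense RNA thus differed widely between the libraries and its partner little. The kit marks strand, but whether the counting used it is not given here. Titin, TTN, the giant sarcomere protein of muscle, was low in every library, with 5.26 CPM in vehicle, 2.63 in CAY10603, 1.94 in ACY1215, 0.106 in shControl and 0.114 in shHDAC6.

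Over the 28 genes at least 2-fold lower the median level was 64.9 CPM in vehicle, 25 in CAY10603, 21.2 in ACY1215, 5.46 in shControl and 7.21 in shHDAC6. Over the 88 at least 1.5-fold lower it was 21.8, 11.2, 8.97, 5.44 and 6.65 CPM. Vehicle held the highest level of the 5 libraries for 70 of the 88, and for 12.5% of all measured genes. It held the lowest for 27 of the 39 higher genes, and for 20.8% of all. Leaving out rows that vehicle held at 2 or more times the level of each hairpin library, 5 genes were at least 2-fold apart, 3 higher and 2 lower, and 69 at least 1.5-fold, 39 higher and 30 lower. The members were chosen on the vehicle level, which favours such ranks, so nothing is read from these ranks. Leaving out rows high in vehicle takes away lower genes by construction, so nothing is read from the changed balance either. Olfactory receptor genes, which are silent in most tissues, were read in the same order of libraries. Their 375 rows, chosen after values were seen, summed to 13.3 CPM in vehicle (exact 95% Poisson interval 12.2 to 14.4) and 6.19 CPM in CAY10603 (5.51 to 6.93). The sum was 4.65 CPM in ACY1215, 0.887 in shControl and 0.934 in shHDAC6. Its log2 ratio of CAY10603 over vehicle was -1.10 (interval -1.30 to -0.90), and rows with any count numbered 22189 in vehicle, 21265 in CAY10603 and 18571 in shControl. The part of such reads in the differences between the libraries was not tested.

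**Figure D4:**
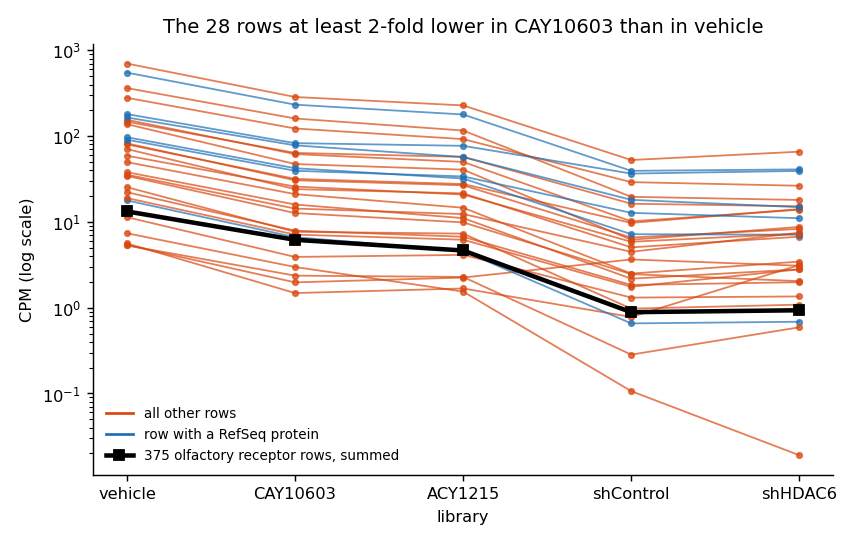
Lines give the CPM (log scale) in each of the 5 libraries of the 28 rows at least 2-fold lower in CAY10603 than in vehicle, and the black line gives the sum over 375 olfactory receptor rows. The black line goes from 13.3 CPM in vehicle to 6.19 in CAY10603, 4.65 in ACY1215 and under 1 CPM in both hairpin libraries, and most rows follow the same order.

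Few genes set the CAY10603 library apart from all others. The counts for every library are over genes with at least 5 CPM in CAY10603 or vehicle. Genes high only in ACY1215 or a hairpin library were left out, and genes high only in vehicle were let in. The 5 libraries are therefore not on an equal footing in these counts. At least 1.5-fold above the highest of the other 4 libraries was 1 gene (0.00925% of 10811), and 4 (0.037%) were at least 1.5-fold below the lowest. The corresponding counts were 61 above (0.564%) and 6 below (0.0555%) for vehicle, 176 (1.63%) and 334 (3.09%) for ACY1215, 16 (0.148%) and 40 (0.37%) for shControl, and 36 (0.333%) and 58 (0.536%) for shHDAC6. The gene above was SNORD76, a C/D box small nucleolar RNA from an intron of GAS5, with 8.10 CPM in vehicle, 12.6 in CAY10603, 7.997 in ACY1215, 5.92 in shControl and 7.32 in shHDAC6. Its host GAS5 had 152 CPM in vehicle and 147 in CAY10603. Most other small nucleolar RNAs of this host were at 0 in all 5 libraries, and the value of so short a transcript is uncertain. The authors' FPKM for SNORD76 is listed at 0 in both vehicle and CAY10603, although its counts were 368 and 613. That measure therefore gives no ratio for SNORD76. The 4 below were CKMT1B, LOC284454, AF289551 and AK055197. CKMT1B, a mitochondrial creatine kinase, had 8.59 CPM in vehicle, 5.53 in CAY10603, 21.0 in ACY1215, 14.04 in shControl and 11.4 in shHDAC6. Its near-identical copy CKMT1A had 3.57 CPM in vehicle and 4.11 in CAY10603, so reads may be split between the copies. All 5 genes had under 15 CPM in CAY10603. LOC284454, AF289551 and AK055197 had 3.39, 3.37 and 3.58 CPM there. Of the pair, they passed the floor of 5 CPM through vehicle alone. They had to be lower in CAY10603 than in vehicle, so nothing is read from their rank. Among genes short of 1.5-fold, chosen after their values were seen, FOXQ1, a forkhead transcription factor, was highest in CAY10603 (7.09 CPM, with 4.38 to 5.22 CPM in the other 4 libraries). CHPF, an enzyme of chondroitin synthesis, was lowest there (7.44 CPM, with 10.3 to 14 CPM elsewhere), as was SMPD1, acid sphingomyelinase (8.18 CPM, with 11.1 to 13.4 CPM elsewhere). Of the pair, FOXQ1 passed the floor of 5 CPM through CAY10603 alone, so nothing is read from its rank.

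**Figure D5:**
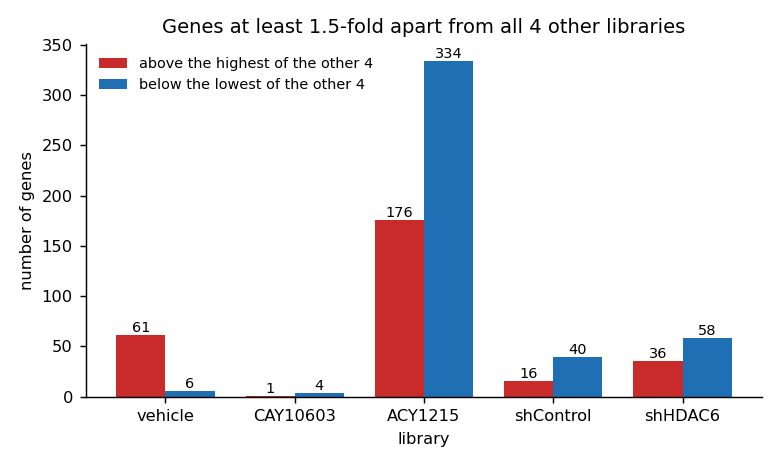
Bars count the genes, of 10811, whose level in a library was at least 1.5-fold above the highest (red) or below the lowest (blue) of the other 4 libraries. CAY10603 has 1 and 4 such genes, and vehicle has 61 and 6. All 10811 genes had at least 5 CPM in CAY10603 or vehicle, so genes high only in another library are left out.

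Counts do not show which isoform was made, but the ratio of deposited counts to deposited FPKM (read level per transcript length) gives the effective length that the authors' quantification assigned to each gene. Of 10629 genes compared, 90.8% had effective lengths within 1.05-fold in CAY10603 and vehicle, and 74 (0.696%) were at least 1.2-fold apart, 32 longer and 42 shorter in CAY10603. LRP1, an endocytic receptor for lipoproteins and proteases, had 19.5 CPM in vehicle and 27.7 in CAY10603 (log2 ratio 0.51), whereas its FPKM was 2.52 and 5.56 (log2 ratio 1.11), with an effective length shorter by 0.69 on the log2 scale. MED12, a subunit of the Mediator kinase module, had a log2 ratio of -0.05 by count and 0.39 by FPKM. WNK1, a kinase of ion transport, had 0.20 by count and -0.41 by FPKM. For these genes the sign or the size of the difference depended on the measure. CDKN2A kept the same length (log2 ratio of lengths -0.02). The read-through row MINOS1-NBL1, at 5.62 CPM in vehicle and 1.48 in CAY10603, had the lowest ratio of all genes (-1.90), while its component genes MINOS1 and NBL1 had 0.25 and 0.17. Reads of a read-through row overlap those genes, and its value is therefore uncertain.

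The ratio also varied with properties of the transcripts. From the fifth of genes with the lowest GC content (GENCODE transcripts, values for 97.2% of genes) to the fifth with the highest, the median log2 ratio of CAY10603 over vehicle went from 0.06 to -0.06. From the fifth with the lowest mean CPM to the fifth with the highest it went from -0.04 to 0.07. In ACY1215 the GC medians went from 0.02 to -0.06 and in shControl from 0.02 to 0.10. These shifts are as large as the medians of several lists given above, and their part in those medians was not tested.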

How the data were processed

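RNA was sequenced from 5 TOV21G libraries, 1 per treatment, from total RNA with a stranded kit, per the labels. The authors deposited 2 values per gene and library: an expected count, headed count and rounded to an integer, and an FPKM with 2 decimals. RSEM 1.2.3, edgeR and hg19 are listed in the submitters' processing notes, with no role given. Neither table column nor label left a library unmatched (0 columns of unknown samples), and DMSO was read as vehicle.

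TMM factors came from edgeR 4.0.16 (R 4.3.3) over all 5 libraries. Ratios are log2 of scaled CPM with a prior count of 2, over genes with at least 5 CPM in CAY10603 or vehicle. Total counts ran from 43498805 to 57442767, and counting error was largest near that floor. TERC, for example, at 2.91 CPM in vehicle and 5.39 in CAY10603, had an interval from 0.58 to 1.20. The computation was tested on simulated data. Ratios, lists and alternatives ran in Python 3.11.15, and DESeq2 1.42.0 gave alternative size factors.

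Members and gene lists were chosen with earlier results of these data known. Named genes are the 15 largest ratios on each side (all rows, and rows with a RefSeq protein), the 10 on each side farthest from the other 4 libraries, the 4 largest of each of 41 lists, and HDAC6, ARID1A, CDKN1A, the class II deacetylases and ATAT1. Some genes and 1 gene list are not reported here, not all named genes are printed, and the other genes named were chosen after their values were seen, as was the removal of rows high in vehicle. RefSeq and GENCODE tables of GRCh38 gave promoters, protein status and GC content, and no coordinate was taken from the files.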

Additional observations from a re-analysis of the deposited data

Results flagged for a closer look

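CKMT1B, AK055197 and LOC284454 were at least 1.5-fold apart from vehicle in opposite directions in the 2 drug libraries. CKMT1B had a log2 ratio over vehicle of -0.63 in CAY10603 and 1.28 in ACY1215. The clone row AK055197 had -0.63 in CAY10603 and 0.95 in ACY1215. The uncharacterised locus LOC284454 had -0.72 in CAY10603 and 0.65 in ACY1215. Of the CAY10603 and vehicle pair, AK055197 and LOC284454 passed the floor of 5 CPM through vehicle alone, so they had to be lower in CAY10603. The difference between the drug libraries was not tested, since each had 1 library, and doses are not known.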

How the results depend on the processing

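No paired analysis was possible because each treatment has 1 library and the labels carry no replicate numbers. Leaving out a replicate was not possible for the same reason. With DESeq2 size factors or a prior count of 0.5 or 10, the 3 counts of genes were within 1.5 times those reported, and all 37 list medians and 72 genes moved by no more than their counting error. Of 127 genes at least 1.5-fold apart there were 590 with a floor of 1 CPM, 2884 with a floor of 10 counts over the pair, 60 with a floor of 20 CPM, 73 with only rows that have a RefSeq protein, 658 with shControl as the control and 69 without rows high in vehicle. Of 31 genes at least 2-fold apart there were 144, 1377, 22, 10, 153 and 5 under the same settings. With the mean of vehicle and shControl as the control the count was 40, of which 36 were higher and 4 lower. The 5 genes apart from all other libraries became 63 with a floor of 1 CPM, 464 with a floor of 10 counts, 0 with a floor of 20 CPM and 3 with library totals alone.

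With shControl in place of vehicle 6 list medians of at least 0.1 in size and 21 of 33 genes past 1.5-fold turned their sign. The medians became 0.038 for ATF4, -0.26 for hypoxia, -0.16 for clear cell marker, -0.15 for collagen, -0.092 for broad deacetylase inhibitor and 0.39 for histone genes. With the mean of both controls they became -0.079 for ATF4, -0.022 for hypoxia, -0.12 for clear cell marker, -0.051 for collagen and 0.11 for histone genes. The hypoxia median was 0.12 with library totals alone and 0.12 with the authors' FPKM. Against shControl the log2 ratio became 3.45 for ABCC9, -0.53 for AHNAK, -0.57 for AHNAK2, -0.47 for ANGPTL4, -0.073 for CDKN2A, 1.102 for CHAC1, 0.30 for DDIT3, -0.041 for GCNT1, 0.17 for HIST1H4J, 2.02 for KCNQ1OT1, 0.89 for MINOS1-NBL1, 1.49 for MIPOL1, -0.33 for MYD88, -0.27 for SDF2L1, 0.77 for SLC7A11, 2.11 for TBC1D8B, -0.25 for TERC, 2.56 for TMEM45A, 4.198 for TTN, 3.03 for UGDH-AS1 and 3.27 for UGT8. Against the mean of both controls it became 1.31 for ABCC9, 0.25 for CHAC1, 0.54 for KCNQ1OT1, 0.25 for MIPOL1, 0.51 for TBC1D8B, 0.66 for TMEM45A, 1.60 for TTN, 0.93 for UGDH-AS1 and 0.92 for UGT8. Of the other 12 genes 11 kept their sign under every setting run, and SNORD76 is listed at 0 in both libraries in the authors' FPKM. The cause was not tested.

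Above the floor, the counting interval lay wholly past 1.5-fold for 11 of the 39 higher and 52 of the 88 lower genes. The single library on each side gives no measure of variation between cultures.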
